A study of Mus musculus with 8 samples.

Results

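Retinol handling and the alcohol dehydrogenases were described in mouse liver through 9 genes, Rdh7, Rdh16, Rdh10, Dhrs3, Cyp26a1, Rbp4, Adh1, Adh4 and Adh5. They were taken by gene symbol from a table of 24547 genes, and all 9 were found there once. They were picked with their values in these same libraries known, so their differences between the groups are described below and are not tested. Poly-A RNA of liver tissue was sequenced from 4 ICR mouse samples given a decoction of Psoraleae Fructus at high dose, called treated below, and from 4 control samples. Both were dosed into the stomach for 30 days, the controls with saline. ICR is an outbred stock, and the labels give no genotype, sex, age, dose in units of mass or hour of collection. They also do not say whether each library came from a separate animal, and p-values therefore reflect only how far these libraries scatter, which may be technical.

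Total counts ran from 16398729 to 20159132 in the treated libraries and from 15864399 to 19153845 in the controls. On the first principal component (41.1% of the variance, sign arbitrary), treated libraries lay between -24.1 and -14.8. Controls 1, 2 and 3 lay at 17.4, 41.3 and 22.0, while control 4 lay at -9.94, next to the treated libraries. Values that rest on control 4 are therefore also given without it.

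Liver takes up dietary retinol, stores it as esters in stellate cells and releases it into blood bound to a carrier protein. Inside cells, retinol is oxidised reversibly to retinaldehyde by short-chain dehydrogenases and by alcohol dehydrogenases, and retinaldehyde is oxidised irreversibly to retinoic acid, which acts through nuclear receptors and is cleared by CYP26 enzymes. The alcohol dehydrogenases of hepatocytes also oxidise ethanol and other alcohols, and one of them handles formaldehyde bound to glutathione.

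The upstream sequences of 4 genes are shown, since one carries a retinoic acid response element and the others come from neighbouring dehydrogenase genes that were each higher in treated liver. RefSeq promoter windows of GRCm38.p6, from 250 bases before to 50 bases after the start of a gene, were found for 8 of the 9 genes, all but Rdh10. Where RefSeq gives several (Rdh7, Rbp4, Dhrs3 and Adh5), the one nearest to the GENCODE start was used. The window of Adh1 lies 16594 bases from its GENCODE start, inside the gene, while the other 7 lie within 84 bases. Cyp26a1 encodes the enzyme that clears retinoic acid and is itself a classical target of it. The 250 bases before its start (chr19:37697558-37697807, plus strand) hold a direct repeat of a receptor half-site with 5 bases between the copies (DR5), in capitals, which reads as AGTTCA repeats on the other strand.
Cyp26a1 upstream: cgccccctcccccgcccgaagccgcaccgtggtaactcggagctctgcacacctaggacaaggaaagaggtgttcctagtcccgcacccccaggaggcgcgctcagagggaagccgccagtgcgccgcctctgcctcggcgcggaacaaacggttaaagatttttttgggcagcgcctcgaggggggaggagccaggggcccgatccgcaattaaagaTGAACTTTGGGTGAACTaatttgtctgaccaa

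The half-site searched on both strands was AGGTCA, with its variant AGTTCA and the counterpart of each that begins with G (GGGTCA for the one, GGTTCA for the other), in pairs with 5, 2 or 1 bases between them. A DR5 pair was in 32 of 32851 mouse promoter windows (0.0974%) and in 1 of the 8 windows at hand, that of Cyp26a1. DR2 and DR1 pairs were in 0.268% and 0.222% of all windows and in 0 of these 8, so no motif overlapped another. A match describes letters in the window and is no measurement of binding.

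Rdh16, Rdh7 and Rdh9 lie in a cluster of short-chain dehydrogenase genes on chromosome 10, and their upstream windows align with one another. Of the aligned bases, 70 of 86 were identical between Rdh16 and Rdh7 (81.4%), 151 of 203 between Rdh16 and Rdh9 (74.4%) and 121 of 143 between Rdh7 and Rdh9 (84.6%). Rdh16f2, of the same cluster and not called at the threshold given below, also aligned with Rdh7, over a shorter stretch (37 of 39 identical, 94.9%). With Rdh9 it aligned over 31 bases (23 identical) and with Rdh16 over 10. Rdh1 aligned with each over 26 bases or fewer. Whether shared upstream sequence goes with the differences between the groups was not tested. The RefSeq start used for Rdh7 lies 84 bases from its GENCODE start, inside the gene, so part of its aligned bases lie in the annotated gene. The stretch common to all 3 was kept to bases before the GENCODE start of Rdh7 and is therefore not the whole of it. Capitals mark the 34 of its 47 aligned columns that are identical in each. It lies at chr10:127800903-127800951 (plus strand) for Rdh16, at chr10:127888818-127888865 (minus strand) for Rdh7 and at chr10:127776191-127776239 (plus strand) for Rdh9.
Rdh16 upstream stretch: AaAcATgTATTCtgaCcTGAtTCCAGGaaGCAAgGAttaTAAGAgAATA
Rdh7 upstream stretch: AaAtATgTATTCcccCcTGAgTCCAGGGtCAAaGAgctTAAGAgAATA
Rdh9 upstream stretch: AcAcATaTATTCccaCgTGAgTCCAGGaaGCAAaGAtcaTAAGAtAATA

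The 9 genes spanned a wide range of levels in liver. On the FPKM scale, which divides by gene length and so allows genes to be compared, Rbp4 ranked 16 of 24547 genes, at 3323 ± 626 in treated and 2542 ± 942 in control libraries (SD, n = 4 each, as for all ± SD below). Rdh7 ranked 67, at 807 ± 87.1 FPKM in treated and 523 ± 66.4 in control libraries, and Adh1 ranked 115, at 435 ± 62.6 FPKM in treated and 359 ± 134 in control libraries. Below these came Adh5 (63.1 ± 5.74 FPKM in treated, 47.4 ± 12.6 in control) and Dhrs3 (56.0 ± 6.40 in treated, 44.1 ± 13.3 in control). Adh4 (40.0 ± 6.57 FPKM in treated, 33.6 ± 15.8 in control) and Rdh16 (26.3 ± 5.16 in treated, 10.9 ± 4.67 in control) followed. Rdh10 (8.23 ± 1.10 FPKM in treated, 6.77 ± 1.36 in control) and Cyp26a1 (2.50 ± 1.79 in treated, 2.29 ± 1.72 in control) were lowest, at ranks 3853 and 7360.

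Neighbours in this order overlapped in both groups for Adh5 and Dhrs3 and for Dhrs3 and Adh4, and in controls alone for Rdh7 and Adh1 and for Adh4 and Rdh16. Within single libraries the order was stable. In each pair of neighbours the upper gene was above the lower one in all 8 libraries, except that Adh5 was above Dhrs3 in 3 of the 4 treated libraries and in 4 of the 4 controls.

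All 9 genes passed the filter on low counts, and each had a positive log2 fold change (treated minus control) in edgeR's quasi-likelihood fit over the whole table. The median over them was 0.38, beside -0.04 over all 12861 genes tested, of which 46.7% were positive. A gene is called here at a Benjamini-Hochberg adjusted p under 0.05 over all genes tested. Rdh7 and Rdh16 were called, both higher in treated liver, which is 2 of 9. Of all genes tested, 9.21% were called in either direction, 5.46% higher and 3.75% lower. Since the 9 genes were picked on this comparison, nothing is read from that count. The same 2 genes had every treated value above every control value, as did 10.2% of all genes tested.

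**Figure D1:**
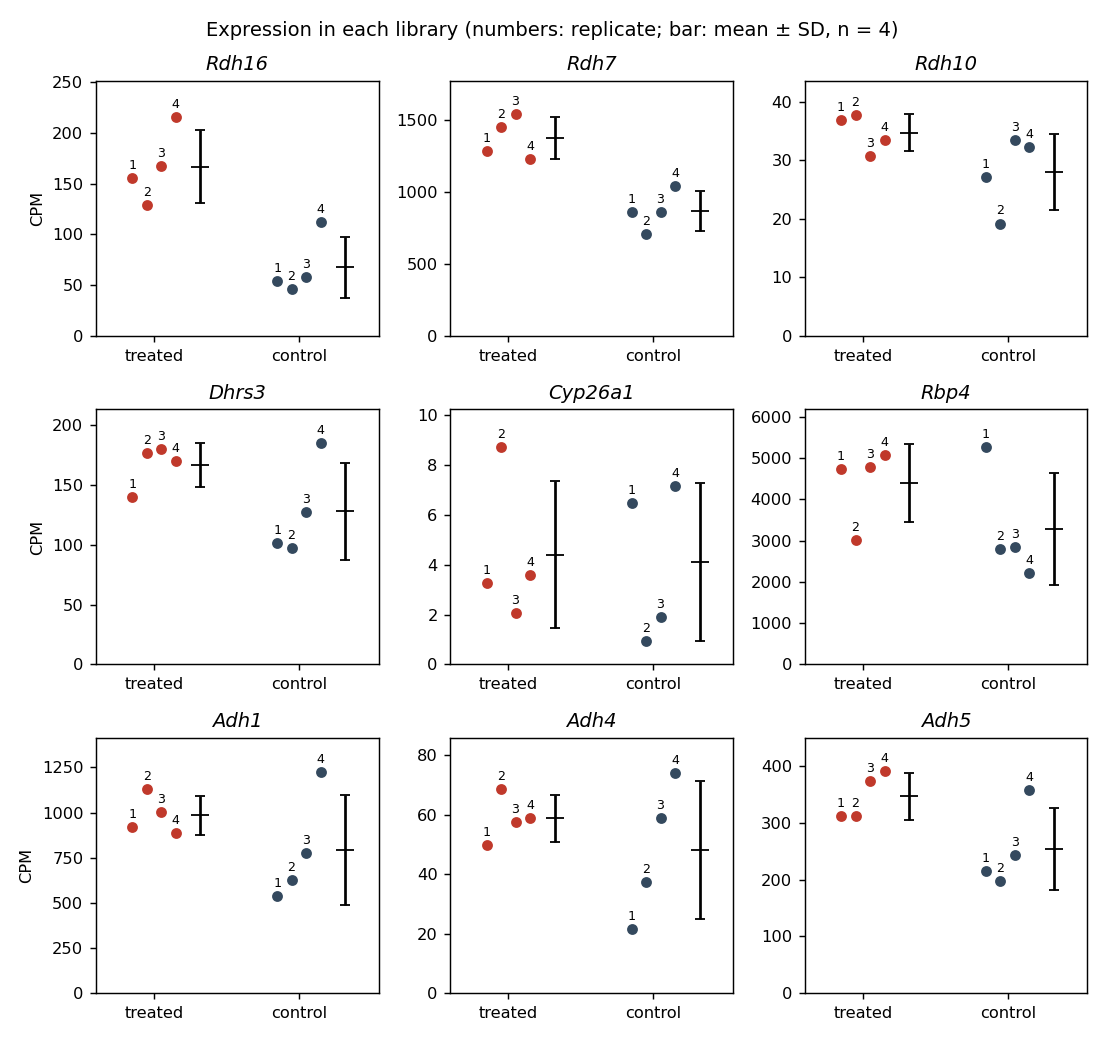
CPM (counts scaled to library depth with TMM factors) of the 9 genes, one panel per gene with its own linear axis from 0. Points are libraries, numbered by replicate, with treated on the left and control on the right, and bars give the mean ± SD (n = 4). The groups are apart for Rdh16 (lowest treated 129, highest control 112) and Rdh7 (lowest treated 1227, highest control 1042) and overlap for the other 7 genes.

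Rdh16 and Rdh7 are short-chain dehydrogenases of the microsomal membrane that oxidise retinol and hydroxysteroids. Rdh16 (chromosome 10, 127801152 to 127846565, plus strand, GRCm38 as are all positions) stood at 155, 129, 167 and 215 CPM in treated libraries 1 to 4, against 53.7, 46.2, 58.3 and 112 CPM in controls 1 to 4. The lowest treated library was above the highest control, which was control 4, and the 3 other controls lay close together. The means were 2.47-fold apart, with a log2 fold change of 1.30 (SE 0.29), which was 1.66 (SE 0.19) without control 4. Over 16 other settings of the fit it ran from 1.16 to 1.66, and the call held in 10 of them. Among the 8 fits that drop 1 library, the call held without treated 2 and without control 4 and was lost without any other one (log2 fold change 1.16 to 1.35 in those 6).

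Rdh7 (chromosome 10, 127884028 to 127888817, minus strand) stood at 1284, 1450.2, 1541 and 1227 CPM in treated libraries 1 to 4, against 864, 706, 862 and 1042 CPM in controls 1 to 4. Its groups did not overlap either, and control 4 was again the highest control. The log2 fold change was 0.66 (SE 0.17), 0.77 (SE 0.17) without control 4, and 0.51 (SE 0.15) once gene length and GC content were corrected for, under which it was not called. Its call held in 6 of the 16 settings and, among the 8 that drop 1 library, only without control 4. The other 7 such fits gave log2 fold changes of 0.59 to 0.72.

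Both genes have close relatives that could take part in their reads. Of the 50-base stretches in the transcripts of Rdh16, 14.5% occur in another gene, most often Rdh9, and 6.13% of its exonic bases overlap the pseudogene Rdh18-ps on the same strand. For Rdh7 12.9% are shared, most often with Rdh18-ps. Levels of these 2 genes are uncertain to that extent. For Rdh10, Rbp4, Dhrs3, Cyp26a1 and Adh4 no such stretch was shared, and for Adh1 and Adh5 2.11% and 0.31% were. Adh1 also overlaps Gm16559 on the opposite strand over 6.09% of its exonic bases, and the library kit does not mark strand.

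Rdh10 and Dhrs3 encode enzymes that work in opposite directions, Rdh10 oxidising retinol and Dhrs3 reducing retinaldehyde back to retinol. Rdh10 (chromosome 1, 16105774 to 16133734) stood at 36.8, 37.8, 30.8 and 33.4 CPM in treated libraries 1 to 4, against 27.0, 19.2, 33.4 and 32.2 CPM in controls 1 to 4. Only controls 1 and 2 lay below the treated range (log2 fold change 0.31, SE 0.17). Without control 2 it was 0.18, the lowest of the 8 fits that drop 1 library.

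Dhrs3 (chromosome 4, 144892827 to 144928209) stood at 140, 177, 180.0 and 170 CPM in treated libraries 1 to 4, against 102, 97.1, 127 and 185 CPM in controls 1 to 4. Controls 1 to 3 were below every treated library, and control 4 was above all of them. Dhrs3 had a log2 fold change of 0.38 (SE 0.20) with all libraries and 0.62 (SE 0.15) without control 4, the only one of the 16 settings in which it was called.

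Cyp26a1 (chromosome 19, 37697798 to 37701536), which hydroxylates retinoic acid for removal, was the least abundant and the most scattered. Its libraries held 65, 149, 34 and 60 counts in treated 1 to 4 and 108, 18, 30 and 136 counts in controls 1 to 4. That is 3.25, 8.74, 2.06 and 3.58 CPM in treated libraries and 6.49, 0.93, 1.89 and 7.14 CPM in controls. Both groups had high and low libraries, treated 2 and controls 1 and 4 being high. The log2 fold change was 0.10 (SE 0.67), and it ran from -0.45 without treated 2 to 0.51 without control 4, so neither direction nor size was settled at this spread. This holds for the gene whose upstream DR5 repeat is printed above.

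Rbp4 (chromosome 19, 38116629 to 38125281), the protein that carries retinol out of the liver, stood at 4734, 3007, 4784 and 5086 CPM in treated libraries 1 to 4, against 5264, 2802, 2836 and 2214 CPM in controls 1 to 4. Control 1 was the highest of all 8 libraries, and treated 2 lay near controls 2 and 3. With all libraries the log2 fold change was 0.43 (SE 0.29), and it was 0.75 without control 1, 0.28 without control 4, and 0.05 (SE 0.29) after the length and GC correction.

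**Figure D2:**
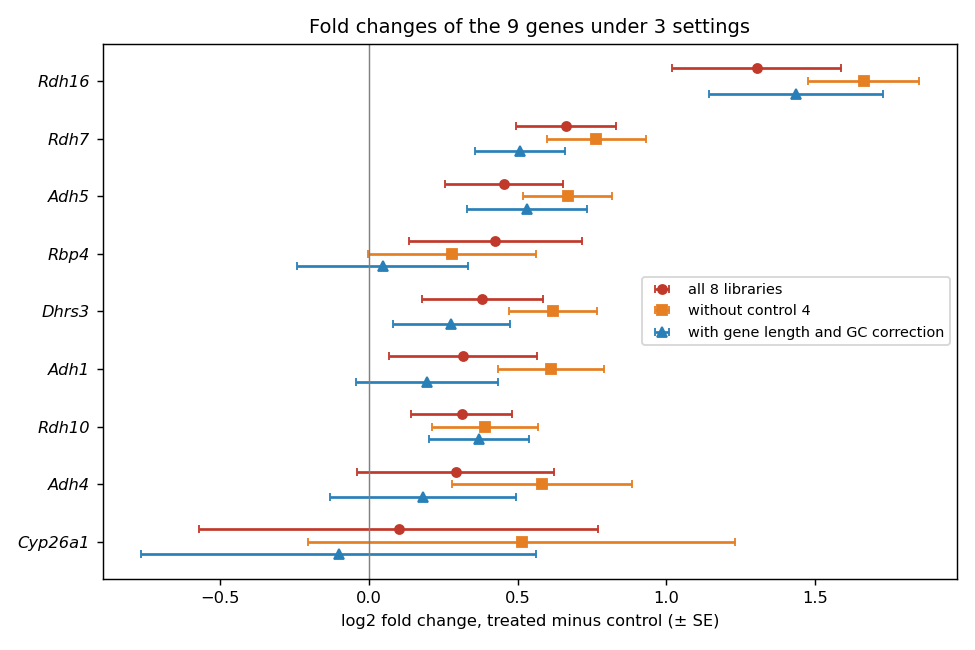
Log2 fold change, treated minus control, of each of the 9 genes on a linear axis, with bars of ± 1 SE. Circles use all 8 libraries, squares leave out control 4 and triangles add the length and GC correction. Rdh16 is far right in each (1.30, 1.66 and 1.44), Rbp4 moves to 0.05 after the correction and Cyp26a1 spans 0 in each.

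The 3 alcohol dehydrogenase genes lie together on chromosome 3. Adh1, the class I enzyme that oxidises ethanol and retinol (138260991 to 138290698), stood at 919, 1132, 1003 and 888 CPM in treated libraries 1 to 4, against 538, 625, 775 and 1225 CPM in controls 1 to 4. Controls 1 to 3 were below every treated library and control 4 was the highest of all 8. Its coefficient of variation was 11.0% in treated and 38.6% in control libraries. The log2 fold change was 0.32 (SE 0.25) with all libraries, 0.61 (SE 0.18) without control 4, where Adh1 was called, and 0.17 without control 1.

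Adh4, a class II enzyme that accepts retinol and larger alcohols (138415466 to 138430892), stood at 49.7, 68.7, 57.7 and 58.8 CPM in treated libraries 1 to 4, against 21.5, 37.4, 59.0 and 74.0 CPM in controls 1 to 4. The treated values lay inside the control range. Adh4 had a log2 fold change of 0.29 (SE 0.33), 0.58 (SE 0.30) without control 4 and 0.05 without control 1, and it was called in 0 of the 16 settings.

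Adh5, the class III enzyme that oxidises formaldehyde as its glutathione adduct (138443093 to 138455499), stood at 312, 312, 374 and 391 CPM in treated libraries 1 to 4, against 216, 198, 243 and 358 CPM in controls 1 to 4. Only control 4 reached into the treated range. The log2 fold change was 0.45 (SE 0.20) with all libraries and 0.67 (SE 0.15) without control 4, the 1 setting in which Adh5 was called.

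Adh1 held 80.0% ± 2.10 of the summed FPKM of the 5 Adh genes in treated and 80.7% ± 1.02 in control libraries. Adh5 held 11.8% ± 1.95 in treated and 11.0% ± 1.56 in control libraries, and Adh4 held 7.34% ± 0.53 in treated and 7.33% ± 1.80 in control libraries. Among 22 retinol and retinaldehyde oxidoreductases, Rdh7 held 37.0% ± 2.94 of the summed FPKM in treated and 38.3% ± 6.25 in control libraries, and Rdh16 held 1.23% ± 0.37 in treated and 0.80% ± 0.34 in control libraries. Rdh10 held 0.379% ± 0.054 in treated and 0.495% ± 0.113 in control libraries, and Dhrs3 held 2.58% ± 0.40 in treated and 3.25% ± 1.04 in control libraries. Mean shares of Rdh16 and Rdh10 thus differed by more than the larger SD, in opposite directions, but the groups overlapped for both. Rdh16 held 0.961% to 1.77% in treated and 0.496% to 1.29% in control libraries. Rdh10 held 0.302% to 0.421% in treated and 0.373% to 0.621% in control libraries. While its share was lower in treated, the FPKM of Rdh10 itself was higher (8.23 against 6.77). Mean shares of Rdh7, Dhrs3, Adh1, Adh4 and Adh5 differed by less than the larger SD. None of these was tested.

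**Figure D3:**
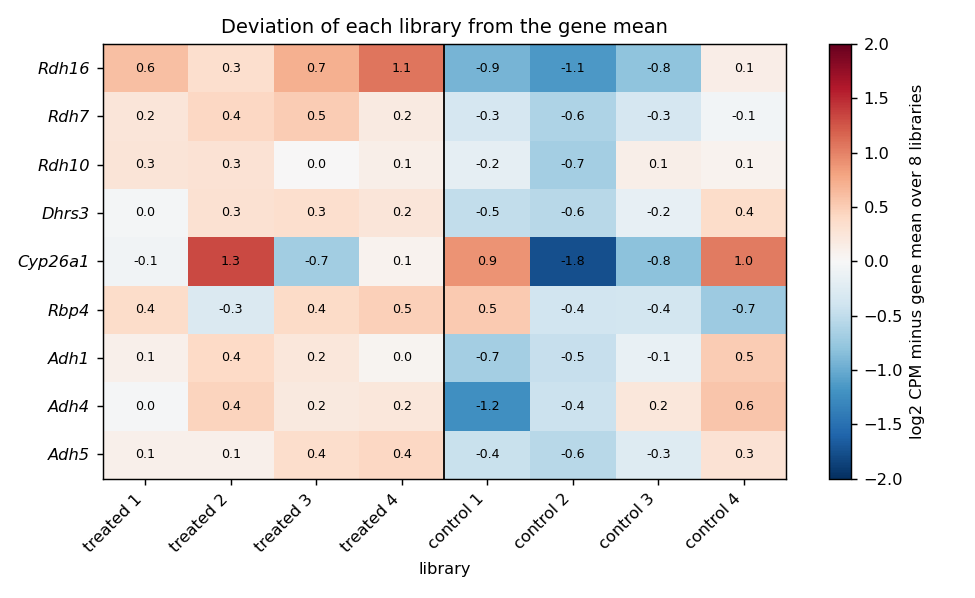
Log2 CPM of each gene in each library minus its mean over the 8 libraries, as colour and number, with treated libraries left of the line and controls right of it. Control 2 is negative for all 9 genes, control 4 is positive for 7 of them (all but Rdh7 and Rbp4), and Cyp26a1 has the widest range.

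Control 4 was the highest of the 4 controls for 7 of the 9 genes, as it was for 30.2% of all genes tested. It lay within the treated range for 3 of the 9. The SD of log2 CPM was larger in controls than in treated libraries for 9 of the 9 genes, as for 68.1% of all genes tested, and for 7 of the 9 when control 4 was left out. Without control 4, 5 of the 9 were called higher (Rdh16, Rdh7, Adh1, Adh5 and Dhrs3), beside 9.35% of the 13091 genes then tested, and the median log2 fold change of the 9 was 0.61 beside -0.03. After the length and GC correction 1 of the 9, Rdh16, was called higher, beside 2.59% of the 12858 genes with values, and the median was 0.28 beside -0.03.

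In genome order, the dehydrogenase cluster of chromosome 10 holds Rdh1, Rdh9, Rdh16, Rdh19, Rdh16f2, Rdh7, Sdr9c7 and Hsd17b6, of which Rdh1 and Rdh19 were too low to test. Rdh9, a cis-retinol and hydroxysteroid dehydrogenase that precedes Rdh16, was at 5.56 ± 0.68 FPKM in treated and 2.20 ± 0.64 in control libraries (log2 fold change 1.39, SE 0.22, adjusted p = 0.00879 by edgeR), and was called in all 16 other settings. Rdh16f2, at 274 ± 34.1 FPKM in treated and 178 ± 43.4 in control libraries, did not overlap between the groups but was not called (log2 fold change 0.65, SE 0.23, adjusted p = 0.096 by edgeR). Hsd17b6, which also acts on hydroxysteroids, was at 453 ± 150 FPKM in treated and 250 ± 140 in control libraries (log2 fold change 0.88, SE 0.40), not called. Log2 fold changes of the 6 tested genes ran from 0.46 to 1.39. In the cluster of chromosome 3 the 4 tested genes, Adh7 with the 3 above, ran from 0.19 to 0.45, and none was called.

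**Figure D4:**
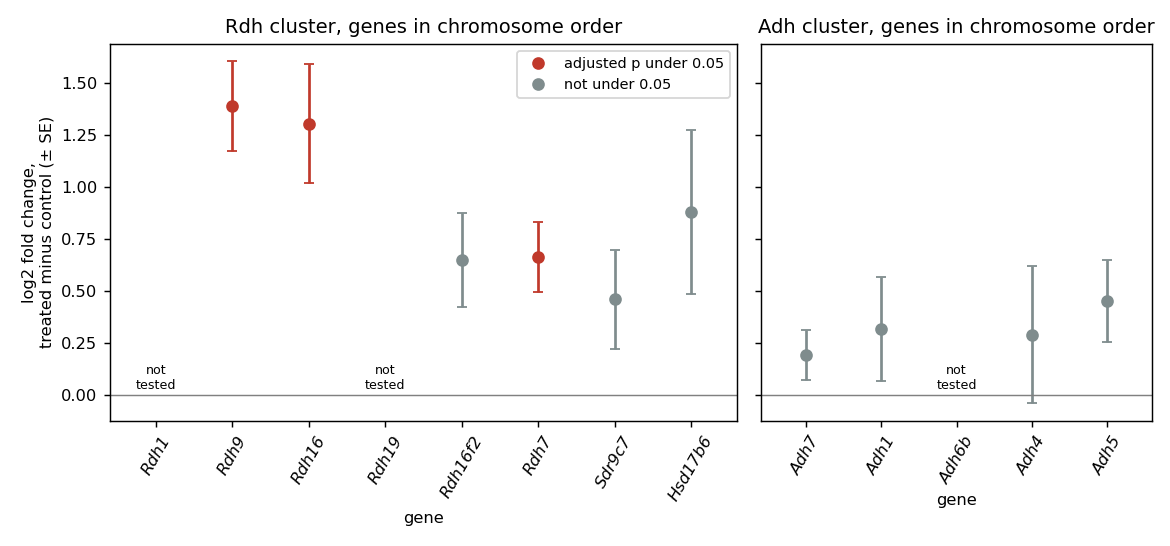
Log2 fold change, treated minus control (± SE), of genes in chromosome order for the dehydrogenase cluster of chromosome 10 (left) and the Adh cluster of chromosome 3 (right), on a shared linear axis. Red points were called. Rdh9 and Rdh16, at 1.39 and 1.30, are neighbours among the genes shown, and no Adh gene shown exceeds 0.45.

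The other genes of the pathway were taken from lists chosen with earlier results of these data known. In these lists and in the marker lists, rose and fell mean called higher and called lower in treated liver. Beside their counts stand 5.46% called higher and 3.75% called lower among all genes tested, of which 46.7% had a positive fold change. As the lists were chosen with earlier results known, nothing is read from their counts. In retinol transport and storage 1 of 9 tested genes rose and 1 fell, with a median log2 fold change of 0.00 (0.22 without control 4). Scarb1, a lipoprotein receptor that also takes up carotenoids, rose to 35.8 ± 1.94 FPKM in treated liver, against 15.3 ± 4.82 in controls (log2 fold change 1.25, SE 0.22, adjusted p = 0.013 by edgeR), a call lost without treated 3 (adjusted p = 0.0511). Stra6l, a receptor for Rbp4, fell to 11.8 ± 1.56 FPKM, against 17.8 ± 2.64 in controls (log2 fold change -0.55, SE 0.15, adjusted p = 0.045 by edgeR), a call that held without control 1 or control 4 but in no other fit that drops 1 library, nor after the length and GC correction (-0.39). Ttr, the blood partner of Rbp4, was at 3492 ± 523 FPKM in treated and 2999.8 ± 768 in control libraries (log2 fold change 0.26, SE 0.22, and 0.45 without control 4). Lrat, which esterifies retinol for storage, had a log2 fold change of 0.00, and 0.25 without control 4.

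Among the other retinol and retinaldehyde oxidoreductases 2 of 13 tested genes rose and none fell, and 11 of the 13 had a positive fold change, with a median log2 of 0.51. Beside Rdh9 this was Dhrs4, a peroxisomal reductase of retinaldehyde, at 109 ± 9.98 FPKM in treated and 70.8 ± 7.08 in control libraries (log2 fold change 0.67, SE 0.13, adjusted p = 0.016 by edgeR). Its call was lost without treated 3 (log2 fold change 0.58) and after the length and GC correction (0.42). Without control 4, 5 of these genes were called higher, beside 9.35% of the 13091 genes then tested, and their median log2 fold change was 0.68.

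In retinoic acid synthesis and clearance 0 of 6 tested genes rose and 1 fell, with a median log2 of -0.22. Without control 4, 0 rose and 0 fell, and the median was 0.04. Aldh1a1, which makes retinoic acid from retinaldehyde, was at 180.1 ± 27.4 FPKM in treated and 178 ± 118 in control libraries (log2 fold change 0.07, SE 0.39). Cyp2c39, a mouse P450 that hydroxylates retinoic acid, was at 1052 ± 148 FPKM in treated and 935 ± 215 in control libraries (log2 fold change 0.20, SE 0.22). Aldh1a7, a close paralog of Aldh1a1 with which reads could be shared, fell to 6.83 ± 2.21 FPKM, against 27.6 ± 13.7 in controls (log2 fold change -1.95, SE 0.47, adjusted p = 0.042 by edgeR). Control 1, at 7.41 FPKM, lay inside the treated range, and of the 8 fits that drop 1 library the call held in the one without control 1.

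Among the receptors and corepressors tested 1 of 8 rose and none fell, with a median of 0.05 (0.02 without control 4). It was Rxrb, a retinoid X receptor (log2 fold change 0.70, SE 0.14, adjusted p = 0.018 by edgeR), whose call was lost without treated 3 (0.70) and after the length and GC correction (0.40). Rxra, the main liver form, was at 103 ± 4.70 FPKM in treated and 86.4 ± 10.8 in control libraries (log2 fold change 0.29, SE 0.15), and Ncor1, a corepressor, had a log2 fold change of -0.05 (SE 0.13).

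Of genes known to respond to retinoic acid, 1 of 8 tested rose and none fell, with a median of -0.13 (-0.03 without control 4). Rarres2, which encodes the adipokine chemerin, rose to 44.0 ± 6.26 FPKM, against 21.8 ± 2.66 in controls (log2 fold change 1.05, SE 0.16, adjusted p = 0.00868 by edgeR), and was called in all 16 other settings. Rarres1 had a log2 fold change of 0.43 (SE 0.26), and Rarb, the receptor gene induced by retinoic acid, one of 0.16. Cyp26b1, a second clearing enzyme, had one of -1.15 (SE 0.47, adjusted p = 0.146 by edgeR), not called.

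Of other genes of alcohol and formaldehyde metabolism 3 of 10 rose and none fell, beside 5.46% called higher among all genes tested. All 10 had a positive fold change, as did 46.7% of all genes tested. The median was 0.31, and 0.43 without control 4. Aldh2, the mitochondrial enzyme that removes acetaldehyde, rose to 338 ± 38.7 FPKM, against 199 ± 8.80 in controls (log2 fold change 0.80, SE 0.15, adjusted p = 0.014 by edgeR), a call lost without treated 3 (0.79). Aldh3a2, of fatty aldehydes, rose by 0.62 (SE 0.14, adjusted p = 0.026), with its call lost without treated 1, 3 or 4 or control 2 (0.58 to 0.64). Aldh1b1, a mitochondrial relative of Aldh2, rose by 1.11 (SE 0.25, adjusted p = 0.029), with its call kept only without control 4 among such fits, and lost after the length and GC correction (0.90). Cyp2e1, the P450 of ethanol oxidation, had a log2 fold change of 0.54 (SE 0.25) and Cat, catalase, one of 0.25 (SE 0.25), neither called. Leaving out control 4 gave 0.45 for Cyp2e1 and 0.52 for Cat, again not called.

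**Figure D5:**
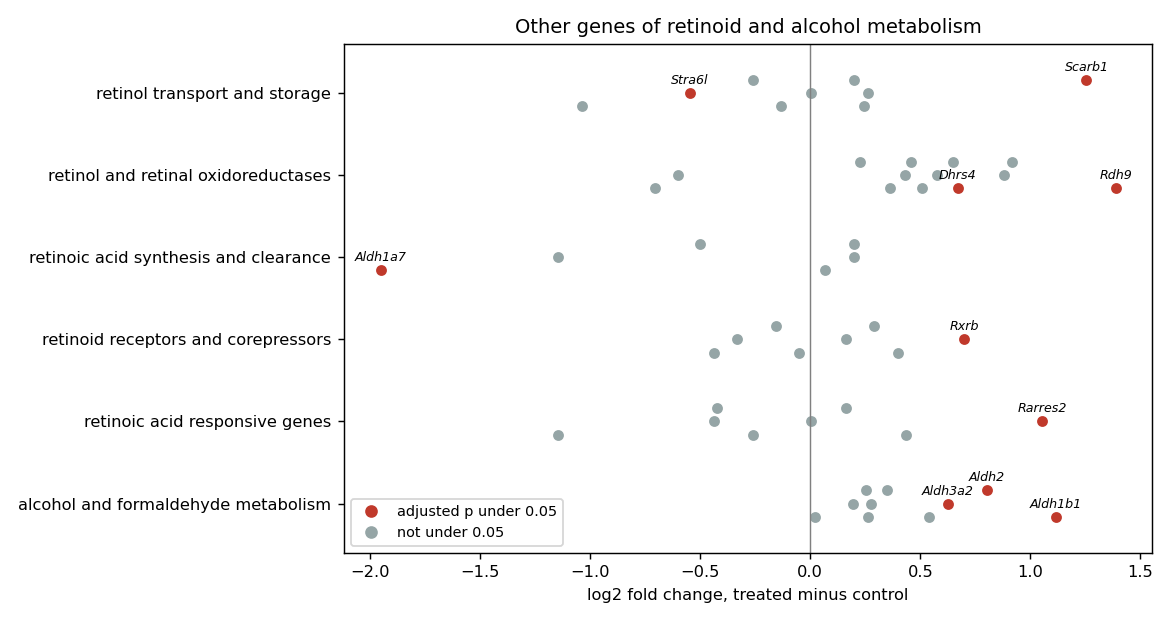
Log2 fold change, treated minus control, of the tested genes in the 6 lists of other retinoid and alcohol metabolism genes, one row per list. Red, named points were called and grey points were not. Rdh9 (1.39) and Scarb1 (1.25) lie farthest right and Aldh1a7 (-1.95) farthest left.

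Tissue make-up was checked on marker lists. In bulk liver, fewer cells of a type and less RNA per cell cannot be told apart. Of 9 tested hepatocyte markers 0 were called, and their summed FPKM was 63158 to 68116 in treated and 57343 to 70799 in control libraries. Among 16 markers of stellate cells, which store retinol, 1 fell (Pdgfra, log2 fold change -1.14, adjusted p = 0.00666 by edgeR), with sums of 126 to 151 FPKM in treated and 146 to 165 in control libraries. Macrophage markers fell in 3 of 12 (223 to 478 FPKM in treated, 341 to 914 in control), endothelial markers in 2 of 10 (55.5 to 94.1 FPKM in treated, 82.6 to 113 in control) and T and NK cell markers in 3 of 6 (3.54 to 4.51 FPKM in treated, 5.50 to 23.0 in control). With all 8 libraries, no tested macrophage, endothelial or T and NK cell marker had a positive log2 fold change (medians -0.91, -0.26 and -1.52). Of all genes tested, 3.75% were called lower. Of 4 tested cholangiocyte markers 0 were called (7.22 to 20.1 FPKM in treated, 10.7 to 16.2 in control). Without control 4, 1 hepatocyte marker (Serpina1a, log2 fold change -0.79), 2 stellate, 8 macrophage and 3 endothelial markers fell, as did 7 of the 9 T and NK cell markers then tested. In that fit 1106 of all 13091 genes were called lower. After the length and GC correction the markers that fell were 1 of hepatocytes (Serpina1a, -0.91), 1 of stellate cells, 0 of macrophages, 1 of endothelium and 2 of T and NK cells. That correction gave 194 lower calls among all 12858 genes. None of these lists had a called marker that rose, no listed marker was at 0 in every library, and the part of these shifts in the values of the 9 genes was not tested.

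The genes whose pattern over the 8 libraries lay closest to that of a called gene were taken by the root-mean-square difference of centred log2 CPM, among 8968 genes. For Rdh7 these were Bri3bp (0.0782) and Mgat4b (0.0787), and for Rdh16 they were Alkbh7 (0.164) and Hint2 (0.215). Of the 8 other retinol and alcohol dehydrogenase genes, Adh5 lay closest to both, at 0.21 from Rdh7 and 0.47 from Rdh16, and Rdh7 and Rdh16 were 0.48 apart. The fold change enters this measure, so it ranks patterns and tests nothing.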

How the data were processed

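The authors deposited 1 table of raw counts per gene with FPKM values for 8 liver libraries. The submitters' processing notes name the build GRCm38 and the tools DESeq2 1.32.0, HTSeq 0.13.5 and HISAT2, without their roles. Neither the annotation release nor the strand setting is given in the sources used here. The deposited FPKM equals count over gene length and library total: all 141371 values checked agreed within 1%. Of 24547 genes, 1620 had no count and 24540 matched GENCODE on GRCm38. Total counts were 15864399 to 20159132.

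Counts were fitted whole with edgeR 4.0.16 in R 4.3.3 (filterByExpr, minimum count 10, minimum total 15, TMM factors, robust quasi-likelihood F test, group as the only term, Benjamini-Hochberg threshold 0.05), which left 12861 genes; the step was tested on simulated data. The SE was derived from the F statistic. The count minimum and the spread between 4 libraries per group limit the precision, most of all for Cyp26a1. No 2 libraries were near-identical (chi-square per degree of freedom at least 32.5).

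Alternatives were DESeq2 size factors, no low-count filter, the DESeq2 1.42.0 Wald test, limma 3.58.1 on log2(FPKM + 1) and log2(FPKM + 0.1), a replicate block, loess offsets for gene length and GC content (span 0.3), each library left out, and controls 2 and 4 left out. The 9 genes, lists and alternatives were chosen with earlier results of these data known. Named beside the 9 genes are, per list, up to 4 called genes of smallest adjusted p and the 2 of highest FPKM, and per called gene the 2 genes closest in pattern. Lrat, Rarb, Cyp26b1, cluster neighbours and cell markers are named beyond this rule, after their values were seen. The check on same-numbered libraries did not settle whether they are paired. A gene that this rule takes is not reported here.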

Additional observations from a re-analysis of the deposited data

Results flagged for a closer look

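In each group of 4 libraries, the gap between the highest or lowest library and its neighbour was set against the range of the group. Of 58 groups, from 29 named genes, 6 had a library standing apart by this measure. Chance alone sets apart about 1 in 20 groups. Among the 9 retinol and alcohol dehydrogenase genes this was Rbp4 in treated 2, at 3007 CPM against 4734 to 5086 in the other treated libraries. Among related genes, Stra6l was high in treated 4 (137.9 CPM), Dhrs4 was high in treated 3 (231.5 CPM), Aldh1a7 was low in control 1 (15.98 CPM), Hsd17b6 was high in control 1 (750.9 CPM) and Rdh16f2 was low in control 2 (129.6 CPM). Control 1 was thus also the highest library for Rbp4.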

How the results depend on the processing

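Of the 9 genes, 8 kept a positive log2 fold change in all 16 other settings, and Cyp26a1 in 12 of them. The number called, 2 with all libraries, was 0 to 5 when single libraries were left out (5 without control 4), 1 after the correction for gene length and GC content and 1 without controls 2 and 4. Over all genes, 1184 were called, 702 higher and 482 lower. Leaving out single libraries gave 183 to 2330 in all, 147 to 1224 higher and 36 to 1106 lower, lowest without treated 3 and highest without control 4. The DESeq2 Wald test gave 2159 (1141 higher, 1018 lower), the length and GC correction 527 (333 higher, 194 lower), and limma on log2(FPKM + 1) and log2(FPKM + 0.1) gave 270 and 289 lower. The cause of these differences was not tested.

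Deviations of same-numbered libraries correlated at 0.18, 0.06, -0.01 and 0.07, and 2 of the 4 numbers matched best with themselves. With only 4 numbers, this check cannot settle whether libraries of the same number are paired. With that number as a replicate block, 1 of the 9 genes, Rdh16, was called, and 944 genes in all. The median over all genes tested lay between -0.06 and -0.01 in every setting. With 4 libraries per group the spread between libraries limits these comparisons, and Cyp26a1 rests on 18 to 149 counts per library.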
